A study of Mus musculus with 4 samples.

Results

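Mbp, Pmp22, Sox10 and S100b are genes of the Schwann cell, the glial cell of peripheral nerve, and of the myelin it makes. They were chosen by symbol and are 4 of the 27998 genes counted. Their transcripts were followed in single-cell libraries of mouse hindlimb tissue at day 7 after a burn of 30% of the body surface combined with cutting of the left Achilles tendon. Control injured and Ddr2 slie/slie injured libraries came from the left limbs, and control uninjured and Ddr2 slie/slie uninjured libraries from the right limbs of burned mice, so the uninjured limbs too came from burned animals. The slie allele is a spontaneous deletion in Ddr2, a collagen receptor gene, and the controls were littermates. The sources used here give neither age nor sex. Each library pooled tissue from 2 mice, so each group had 1 library and no difference between groups could be tested. A unique molecular identifier (UMI) marks 1 captured transcript, and levels are given as CPM, which sets a gene's UMIs against all UMIs of the same library. Intervals are 95% intervals that cover counting error only. Injury, the pooled animals and the recovery of cells by digestion cannot be told apart in this design. A barcode was kept as a cell if it held 200 or more genes and no more than 20% of its UMIs were mitochondrial. Of 60 such cells in the control uninjured library 18 had 3 or more UMIs over the 4 genes, of 184 in slie/slie uninjured 68 did, of 751 in control injured 44 did, and of 246 in slie/slie injured 11 did.

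Myelinating Schwann cells wrap an axon in layers of membrane that are compacted into myelin, and nonmyelinating Schwann cells hold bundles of thin axons without making it. Sox10 is a transcription factor that Schwann cells need at each stage of their lineage, and it activates myelin genes together with Egr2. Pmp22 is a membrane protein of compact peripheral myelin, Mbp encodes the basic protein that holds the inner faces of the membrane together, and S100b encodes a calcium-binding protein used as a Schwann cell marker. Pmp22 is also known from fibroblasts and other cells outside nerve, and S100b from fat and cartilage cells. After a nerve is cut, Schwann cells are known to lower myelin genes and to raise genes such as Ngfr.

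Promoters of 2 of the 4 members, Pmp22 and S100b, matched the RefSeq promoter table of GRCm38.p6 (the mm10 build), and they are shown because both genes were also found outside Schwann-like cells, as described below. Pmp22 (ENSMUSG00000018217) lies on chromosome 11, 63128982 to 63159547, plus strand, and RefSeq lists 4 starts for it. Alternative promoters of Pmp22 are known, of which an upstream one is used mainly by myelinating Schwann cells. S100b (ENSMUSG00000033208) lies on chromosome 10, 76253853 to 76261159, plus strand. The 250 bases before the first and the second listed start of Pmp22 and before the start of S100b are given 5′ to 3′ on the plus strand, at chr11:63128732-63128981, chr11:63131207-63131456 and chr10:76253586-76253835. None of these windows overlaps an annotated exon of its gene. Capitals mark matches to GGGCGG (the GC box) on either strand.
Pmp22 first start: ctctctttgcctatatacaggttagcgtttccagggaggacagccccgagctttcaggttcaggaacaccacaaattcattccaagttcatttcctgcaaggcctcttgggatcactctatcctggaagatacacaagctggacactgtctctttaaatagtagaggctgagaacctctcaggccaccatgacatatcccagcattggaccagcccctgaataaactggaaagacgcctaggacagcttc
Pmp22 second start: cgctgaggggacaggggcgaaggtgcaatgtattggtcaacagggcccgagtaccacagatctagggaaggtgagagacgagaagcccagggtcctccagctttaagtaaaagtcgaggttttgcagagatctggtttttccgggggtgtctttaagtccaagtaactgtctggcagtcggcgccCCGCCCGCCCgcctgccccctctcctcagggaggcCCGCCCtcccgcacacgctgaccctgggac
S100b: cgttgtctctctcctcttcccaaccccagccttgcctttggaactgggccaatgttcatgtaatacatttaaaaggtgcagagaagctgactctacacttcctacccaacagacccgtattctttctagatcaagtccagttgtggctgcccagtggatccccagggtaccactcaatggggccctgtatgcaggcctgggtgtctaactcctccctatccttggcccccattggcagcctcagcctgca
The second Pmp22 window held 3 matches to GGGCGG, 2 of which overlap, and the other windows shown none. Among the Pmp22 windows not shown, that of the third start held none. That of the fourth start, which overlaps 1 annotated exon, also held 3. The letters ACAAAG, a core bound by SOX proteins, and TATAAA, the TATA box, were searched on both strands and were in none of the 3 windows. Among all 32851 promoter windows of the same length, 32.7% held GGGCGG, 16.5% ACAAAG and 12.4% TATAAA. The share of G and C was 48.8% and 61.2% in the first and second Pmp22 window and 53.6% in that of S100b, against a median of 52.4% over all windows. The libraries read the 3′ ends of transcripts, so the counts do not tell which start was used.

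The libraries held 579790 UMIs in 1075 barcodes for control uninjured, 1540053 in 289 for slie/slie uninjured, 4515174 in 842 for control injured and 1493147 in 375 for slie/slie injured. Hemoglobin made up 15.5% to 38.2% of these UMIs. Filtered cells had medians of 1337, 4841, 1641 and 1218 UMIs in the same order, and 1 barcode was found in more than 1 library. All comparisons with the control uninjured library rest on 60 filtered cells and many small barcodes, of which 991 held under 200 genes. The 15 markers used for Schwann cells summed to 1388 CPM in control uninjured and 2070 in slie/slie uninjured, and to 48.9 and 115 in control and slie/slie injured, where Cdh19 and Plekhb1 (control) and Mag (slie/slie) were at 0. Of the markers of other cells that can carry these genes, the 6 melanocyte markers summed to 0 to 28.1 CPM, and all 6 were at 0 in control uninjured. The 5 adipocyte markers summed to 2054 and 567 CPM in control and slie/slie uninjured and to 5.32 and 1.34 in the injured libraries, so they moved the same way as the members. The 6 chondrocyte markers went the opposite way, from 17.2 and 7.14 CPM in control and slie/slie uninjured to 99.0 and 53.6 in the injured libraries. The part of these cells in the results was not tested. The neurofilament genes Nefl, Nefm and Nefh, which mark the nerve cell itself, were at 0 in both uninjured libraries. They belong to a list of 8 neuron markers, of which 3 and 4 were found in control and slie/slie uninjured. The list summed to 128 and 83.1 CPM there, and to 79.7 and 20.1 in control and slie/slie injured. In control injured Nefm and Nefh were at 0, and in slie/slie injured Nefl and Nefm.

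All 4 members were lower in the injured than in the uninjured limb in both genotypes, and Mbp had the highest fold. Mbp (ENSMUSG00000041607, chromosome 18, 82475146 to 82585637, plus strand) had 219 UMIs or 378 CPM (329 to 431) in control uninjured and 390 UMIs or 253 CPM (229 to 280) in slie/slie uninjured. It had 51 UMIs or 11.3 CPM (8.41 to 14.9) in control injured and 8 UMIs or 5.36 CPM (2.31 to 10.6) in slie/slie injured. Both injured libraries thus lay far below both uninjured ones, and the upper bounds in the injured limb were 14.9 and 10.6 CPM. In such sums over a library, fewer cells of a type and less RNA per cell cannot be told apart. The ratio of CPM, with 1 count added to each sum, was 32.9-fold lower with injury in control (24.6 to 46.3) and 42.1-fold lower in slie/slie mice (23.8 to 110).

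Pmp22 stayed the most widely found member in the injured limb. Its levels were 492 CPM (436 to 552) in control uninjured, 714 (672 to 757) in slie/slie uninjured, 77.5 (69.6 to 86.1) in control injured and 69.0 (56.3 to 83.7) in slie/slie injured, from 285, 1099, 350 and 103 UMIs. It was 6.35-fold lower with injury in control (5.40 to 7.44), or 9.65-fold over filtered cells (8.05 to 11.5), and 10.3-fold lower in slie/slie mice (8.45 to 12.8). Transcripts were found in 121 barcodes of the control injured library and in 33 of the slie/slie injured library, with up to 28 in 1 barcode of each.

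Sox10 (ENSMUSG00000033006, chromosome 15, 79154908 to 79165240, minus strand) had 8, 37, 8 and 4 UMIs in control uninjured, slie/slie uninjured, control injured and slie/slie injured. These are 13.8 CPM (5.96 to 27.2), 24.0 (16.9 to 33.1), 1.77 (0.765 to 3.49) and 2.68 (0.730 to 6.86), so that the level in the injured limb was at most 3.49 and 6.86 CPM by the upper bounds. The slie/slie injured bound overlaps the control uninjured interval. Sox10 was 7.79-fold lower with injury in control (2.55 to 23.8), or 16.6-fold over filtered cells (5.43 to 50.8), and 7.37-fold lower in slie/slie mice (3.22 to 34.6). S100b had 40, 84, 31 and 9 UMIs in the same order, or 69.0 CPM (49.3 to 93.9), 54.5 (43.5 to 67.5), 6.87 (4.66 to 9.75) and 6.03 (2.76 to 11.4). It was 9.98-fold lower with injury in control (6.13 to 16.6) and 8.24-fold lower in slie/slie mice (4.55 to 20.5).

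**Figure D1:**
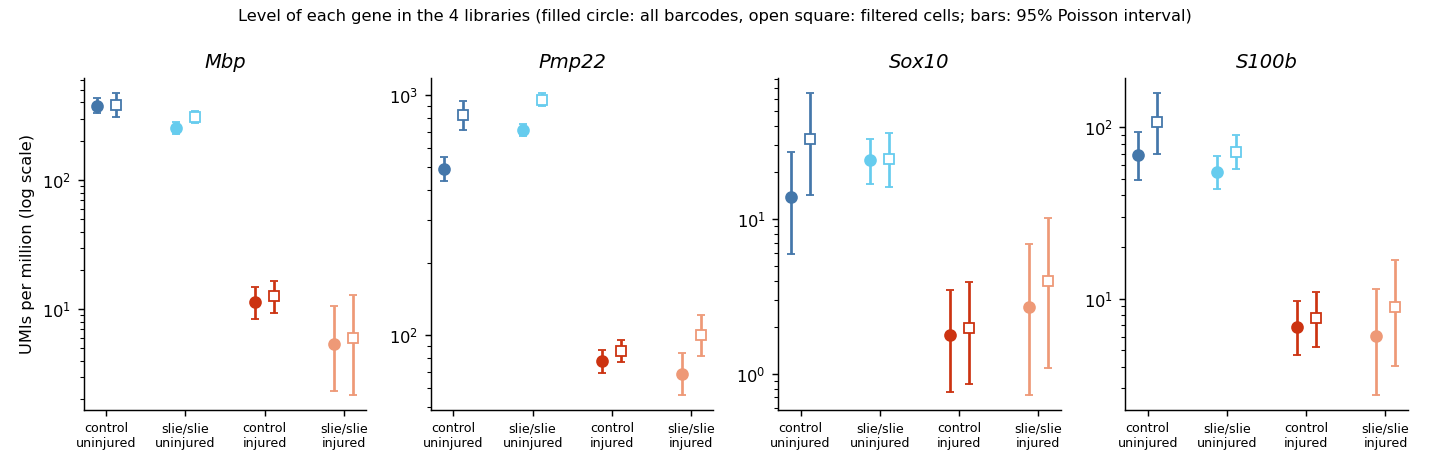
CPM of each gene (log axis) in the 4 libraries, over all barcodes (filled circles) and over filtered cells (open squares), with 95% Poisson intervals. For every gene the points of both injured libraries lie below those of both uninjured libraries, with Mbp at 11.3 and 5.36 against 378 and 253 CPM over all barcodes.

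A gene was counted as higher or lower at a ratio of 1.5-fold or more if it had at least 20 UMIs over the 2 libraries. A gene that is near 0 after injury meets that minimum only through the uninjured library. In control mice 3 members met it (Sox10, with 16 UMIs, did not), and 3 were lower and 0 higher, against 11.2% lower and 52.2% higher among the 11067 genes measured. In slie/slie mice 4 of 4 were lower and 0 higher, against 26.7% lower and 16.8% higher among 9347 genes. The median log2 ratio over all measured genes was 0.63 in control and −0.13 in slie/slie mice. The control value depends on the scaling, at −0.10 over filtered cells (31.4% lower and 26% higher) and 0.18 with hemoglobin left out of the total (20.5% and 34.2%). In slie/slie mice these medians were −0.02 (22.8% and 20%) and 0.06 (20.2% and 22.7%). Control ratios of single genes are therefore to be read against these medians. The 3 measured members were lower under both scalings in control, and all 4 in slie/slie mice.

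Between genotypes no interval of a member excluded 1 in the injured limb. There 0 of 3 measured members were higher in slie/slie than in control, against 5.9% of genes, and 1 (Mbp) was lower, against 30%. The ratios of slie/slie to control were 0.523 for Mbp (0.194 to 1.01), 0.896 for Pmp22 (0.707 to 1.11), 1.68 for Sox10 (0.333 to 5.64) and 0.945 for S100b (0.368 to 1.89). In the uninjured limb 1 of 4 was higher (Sox10, 1.59, interval 0.798 to 4.33, but 0.689 over filtered cells), against 41.2% of genes, and 0 were lower, against 6.42%. Over filtered cells 0 members were higher and 1 lower there, against 20.1% and 20.8% of genes, and without hemoglobin 0 and 2, against 24.2% and 12.2%. In that limb the interval excluded 1 for Mbp, at 0.669 (0.567 to 0.795), and for Pmp22, at 1.45 (1.27 to 1.66). Over filtered cells these were 0.806 (0.644 to 1.03) and 1.15 (0.995 to 1.35), both with intervals that include 1. An interval that includes 1 does not show that the genotypes were alike.

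The 3-UMI rule caught different cells in the uninjured and the injured limb. Cells over the threshold were 30% of filtered cells in control uninjured (18.8 to 43.2), 37.0% in slie/slie uninjured (30.0 to 44.4), 5.86% in control injured (4.29 to 7.79) and 4.47% in slie/slie injured (2.25 to 7.86). Pmp22 was the only member found in 4 of the 18, 23 of the 68, 34 of the 44 and 6 of the 11 cells. At least 3 of the 15 Schwann markers, which the rule did not use, were found in 9, 27, 1 and 2 of them. In the uninjured libraries no cell under the threshold held 3 Schwann markers, and in control injured 2 did. The single control injured cell over the threshold with 3 markers held 26775 UMIs, with 4 of Pmp22 and none of Mbp, Sox10 or S100b. Just outside the threshold, 3, 18, 30 and 5 cells had 2 member UMIs, and just inside it 1, 18, 12 and 5 cells had 3.

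**Figure D2:**
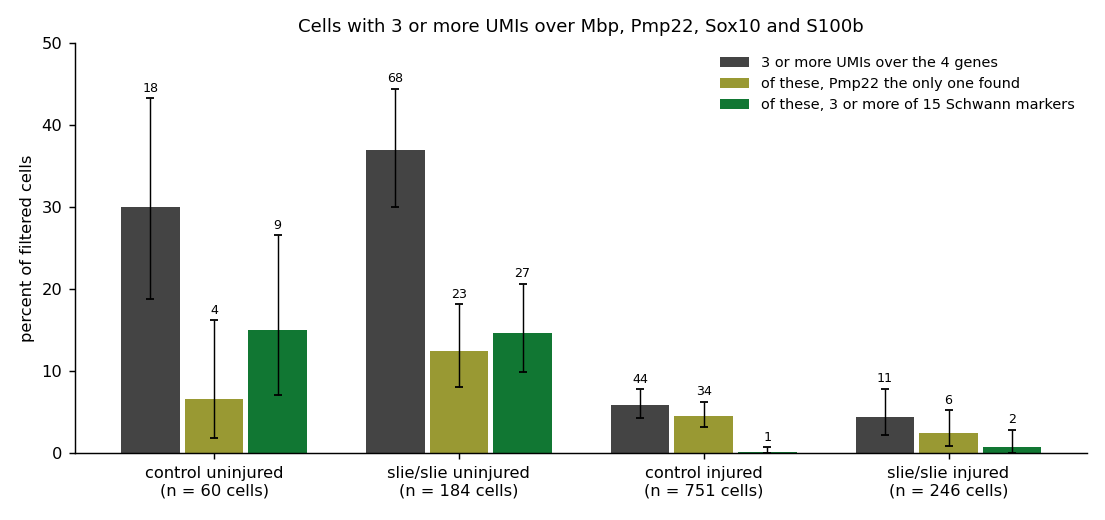
Percent of filtered cells (vertical axis, from 0) with 3 or more UMIs over the 4 genes in each library, and the parts of them in which Pmp22 was the only one found and in which at least 3 of 15 Schwann markers were found; lines are exact binomial 95% intervals and digits are cells. In the injured libraries 34 of 44 and 6 of 11 such cells held Pmp22 alone.

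In the uninjured libraries the cells over the threshold that held 3 Schwann markers varied widely among themselves. In the 9 control uninjured cells, Mbp ranged from 1 to 37 UMIs with a median of 3, Pmp22 from 1 to 94 with a median of 3, S100b from 0 to 5 with a median of 1 and Sox10 from 0 to 2 with a median of 1. In the 27 slie/slie uninjured cells the ranges were 0 to 75 (median 5) for Mbp, 1 to 218 (median 7) for Pmp22, 0 to 11 (median 1) for S100b and 0 to 4 (median 0) for Sox10. Sox10 was found in 5 of the 9 and 13 of the 27 cells. The cells without 3 markers held at most 6 and 2 Mbp UMIs in control and slie/slie uninjured, and Sox10 was found in 2 of 9 and 0 of 41 of them.

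Cells were clustered with the 4 members left out of the genes used, and 17 clusters were found. One was Schwann or glial-like, with 14 of 15 Schwann markers raised and Ncmap and Mal, both of myelin membranes, among its 10 leading genes. It held 13 control uninjured, 16 slie/slie uninjured, 0 control injured and 1 slie/slie injured cells, and the members describe it as follows. Mbp was at 3812 CPM (3065 to 4685) in the control uninjured and 4455 (3970 to 4984) in the slie/slie uninjured cells, Pmp22 at 7157 (6119 to 8322) and 10920 (10152 to 11730), Sox10 at 339 (146 to 668) and 277 (167 to 432), and S100b at 762 (452 to 1205) and 510 (355 to 709). The genotypes' intervals overlap for Mbp, Sox10 and S100b and not for Pmp22, and the cells' median depths were 1075 and 3585 UMIs. A single cell held 94 of the 169 control Pmp22 UMIs, and another 218 of the 750 in slie/slie. The intervals do not cover spread between cells, so the gap for Pmp22 does not show a difference between genotypes.

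The 1 Schwann-like cell of the injured limbs, from the slie/slie mice, held 7348 UMIs, with 28 of Pmp22, 4 of Sox10 and 1 of S100b. No Mbp UMI was found in it, and 3 counts in that cell would be 408 CPM, against 3812 and 4455 CPM in the uninjured Schwann-like cells. Pmp22 stood at 3811 CPM (2532 to 5507) in it, below the intervals of the summed Schwann-like cells in both uninjured libraries. Sox10 stood at 544 (148 to 1394), which overlaps both. Mbp was found in 11 of 13 Schwann-like cells in control uninjured and in 15 of 16 in slie/slie uninjured. Pmp22 was found in 11 of 13 and 16 of 16. Some uninjured cells of this class thus also held no Mbp, and in control some held no Pmp22. The intervals leave out spread between cells, so neither gap shows that this injured-limb cell lies outside the uninjured range. The cell also held 21 UMIs of Cadm4, an adhesion molecule of Schwann cells, 4 of Ngfr and 5 of Ncam1, a neural adhesion molecule. Gap43, Gfap, Erbb3 and Scn7a had 0 UMIs in it, and Jun had 1. Of other myelin genes, Mal had 4 UMIs and Ncmap and Prx 1 each. The cell was not called a doublet. A single cell shows no state of the tissue. All 4 Sox10 UMIs of the library were in this cell, so the Sox10 level of slie/slie injured rests on it.

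The 8 Sox10 UMIs of the control injured library came from 2 barcodes with little else of a Schwann cell. They held 5 and 3 UMIs of Sox10 and 1 each of Mbp, at 47585 and 60152 UMIs in all, with none of Pmp22, S100b, Erbb3 or Cdh19. Instead they held 460 and 1150 UMIs of Ctsk, 362 and 858 of Acp5, 549 and 327 of Mmp9, 73 and 96 of Atp6v0d2 and 10 and 30 of Dcstamp. These are genes of osteoclasts and were named after their values were seen. The pair carried 76.8% of the library's 1589 Acp5 UMIs and 84.6% of its 1035 Mmp9 UMIs. The clustering placed them in the monocyte or macrophage-like class, where 2 of 101 cells had Sox10. In the library 3 barcodes held 20 or more Acp5 UMIs with Ocstamp or Dcstamp, and 2 of them are these. Without them the control injured library has 0 Sox10 UMIs. What gave these Sox10 UMIs was not tested.

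The 51 Mbp UMIs of the control injured library were spread over 44 barcodes with at most 2 in each, and no barcode held 3. They were not spread evenly over the cell classes. Monocyte or macrophage-like cells held 27 UMIs in 24 of 101 cells, or 35.7 CPM (23.5 to 51.9), and neutrophil-like cells 11 in 10 of 152, or 48.5 CPM (24.2 to 86.7). Mesenchymal-like cells, the largest class, held 3 UMIs in 2 of 309 cells, or 2.09 CPM (0.431 to 6.11), and pericyte or smooth muscle-like cells 1 UMI in 51 cells. Keratinocyte-like cells held 4 UMIs in 3 of 31 cells, or 20.4 CPM (5.55 to 52.2). The intervals of the myeloid classes do not overlap that of the mesenchymal-like class. Median depths were 3528, 1213 and 1376 UMIs in macrophage-like, neutrophil-like and mesenchymal-like cells. With each cell thinned to 500 UMIs, Mbp was found in 4 of 101, 7 of 152 and 0 of 309 cells, and the last allows up to 1.19%. GENCODE lists 16 transcripts of the Mbp locus, among which the longer Golli forms are known from immune cells, and which transcript was counted was not tested.

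Outside nerve, Pmp22 was found in connective tissue and vessel wall cells in both limbs. Mesenchymal-like cells had 352 CPM (304 to 405) in slie/slie uninjured, with Pmp22 in 52 of 77 cells, 127 (110 to 147) in control injured, in 70 of 309 cells, and 113 (83.0 to 151) in slie/slie injured, in 16 of 112 cells. The slie/slie uninjured value lies above both injured ones, and 5 control uninjured cells had 375 CPM (138 to 817). Median depths were 5910, 1376 and 750 UMIs in the first 3 libraries named, and with each cell thinned to 500 UMIs Pmp22 was found in 15.6% of 77, 5.50% of 309 and 3.80% of 79 cells. The class differed in its makeup: cluster 9 gave 67 of the 77 uninjured cells, and clusters 0, 1 and 5 gave 100, 113 and 67 of the 309 control injured cells. Pericyte or smooth muscle-like cells had 298 CPM (209 to 413) in slie/slie uninjured, 285 (234 to 343) in control injured and 165 (97.6 to 260) in slie/slie injured, with overlapping intervals. In control uninjured 13 such cells had 71.0 CPM (19.3 to 182), below the intervals of control injured and slie/slie uninjured. In control mice the CPM of Pmp22 in this class was thus higher in the injured limb, unlike its level over the library. Thinned to 500 UMIs per cell, the order was the other way. Pmp22 was then in 2 of 13 control uninjured cells (15.4%, 1.92 to 45.4) and 5 of 51 control injured cells (9.80%, 3.26 to 21.4). These intervals overlap. In endothelial-like cells Pmp22 was at 120 CPM (61.9 to 209) and 201 (150 to 263) in control and slie/slie uninjured and at 40.6 (25.4 to 61.5) in control injured. In slie/slie injured it was at 83.9 CPM (38.3 to 159) in 5 such cells, an interval that overlaps those of the other 3 libraries. Macrophage-like cells had 35.7 CPM (23.5 to 51.9) in control injured, in 9 of 101 cells, an interval that overlaps that of the endothelial-like cells there. In slie/slie uninjured 5 macrophage-like cells had 305 CPM (157 to 532). Keratinocyte-like cells held 0 Pmp22 UMIs in 31 and 22 cells of control and slie/slie injured, at median depths of 1988 and 1507.5 UMIs. Neutrophil-like cells of control injured held 1 in 152, at a median depth of 1213 UMIs.

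S100b outside Schwann-like cells was found in uninjured mesenchymal-like cells, at 73.7 CPM (52.6 to 100.3) in slie/slie mice, in 22 of 77 cells, and at 188 (38.7 to 548) in 5 control cells. In the injured libraries this class had 7.66 CPM (3.82 to 13.7) in control and 17.2 (6.93 to 35.5) in slie/slie mice, in 9 of 309 and 3 of 112 cells. Pericyte or smooth muscle-like cells of control injured had 36.6 CPM (20.0 to 61.3), in 6 of 51 cells, and in control uninjured 1 of 13 such cells held all 5 UMIs. Macrophage-like cells of control injured had none in 101 cells. Sox10 was found outside Schwann-like cells in 3 mesenchymal-like and 1 endothelial-like cell of slie/slie uninjured, besides the barcodes rich in osteoclast genes. Those 2 classes of that library also held Mbp (10 UMIs in 7 of 77 and 20 in 8 of 49), and RNA from Schwann cells in these droplets was not tested.

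**Figure D3:**
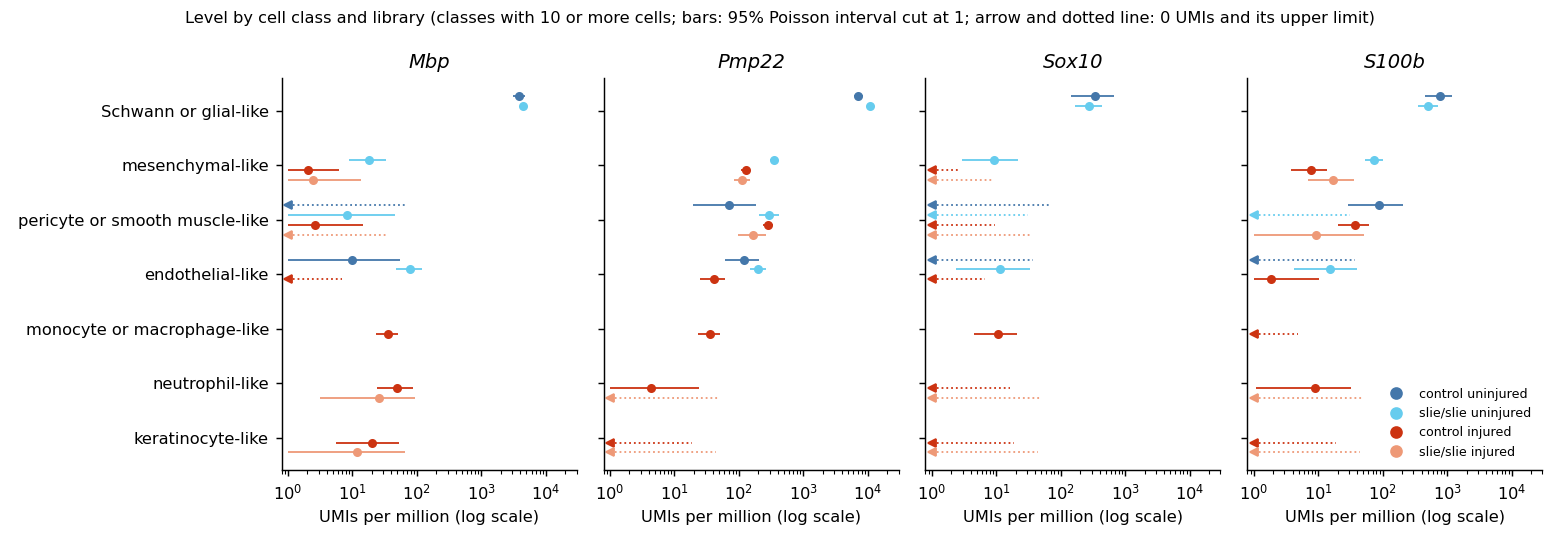
CPM of each gene (log axis) by cell class and library for classes with 10 or more cells, with 95% Poisson intervals cut at 1 CPM; an arrow with a dotted line is 0 UMIs and its upper limit. Schwann or glial-like cells are highest for all 4 genes. Pmp22 is also present in mesenchymal-like, pericyte or smooth muscle-like and endothelial-like cells, and in macrophage-like cells of control injured. Mbp of the control injured library is highest in neutrophil-like and macrophage-like cells.

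The share of member UMIs outside the filtered cells over the threshold differed between libraries. In control uninjured 58.0% of the Mbp UMIs, 33.7% of the Pmp22 UMIs, 35% of the S100b UMIs and 0% of the Sox10 UMIs lay outside the filtered cells over the threshold. In slie/slie uninjured these shares were 14.9%, 8.92%, 9.52% and 27.0%, and the 10 Sox10 UMIs were all in 4 of the 7 failing barcodes over the threshold. Those 7 held 1308 to 4243 UMIs and failed on a mitochondrial share of 20.7% to 46.3%, while all 17 such barcodes of control uninjured held under 200 genes, at 48 to 375 UMIs. In control injured 92.2% of Mbp and 27.7% of Pmp22 lay outside, of which 47 Mbp and 92 Pmp22 UMIs were in filtered cells under the threshold, and the 91 failing barcodes held 0 and 5. The 129 failing barcodes of slie/slie injured held 2 UMIs of Mbp, 2 of Pmp22 and none of Sox10 or S100b.

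Mbp and Pmp22 were not in the same proportion in filtered cells and in failing barcodes. In control uninjured the 18 filtered cells over the threshold held 92 UMIs of Mbp and 189 of Pmp22, and the 17 failing barcodes over it held 97 and 59. In slie/slie uninjured the 68 cells held 332 and 1001, and the 7 failing barcodes 40 and 41. Pmp22 thus outnumbered Mbp in the cells of both libraries, while the failing barcodes held more Mbp in control and about equal numbers in slie/slie mice. A single failing barcode of control uninjured held 46 of the 59 Pmp22 UMIs, and another held 32 of the 97 of Mbp. The failing barcodes under the threshold held 29 and 26 in control and 9 and 12 in slie/slie uninjured. Member UMIs chose the barcodes over the threshold, so barcodes rich in either gene are favoured there. In control uninjured 6 of the 17 failing barcodes over the threshold held Mbp as the only member, and none of the 18 cells did.

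**Figure D4:**
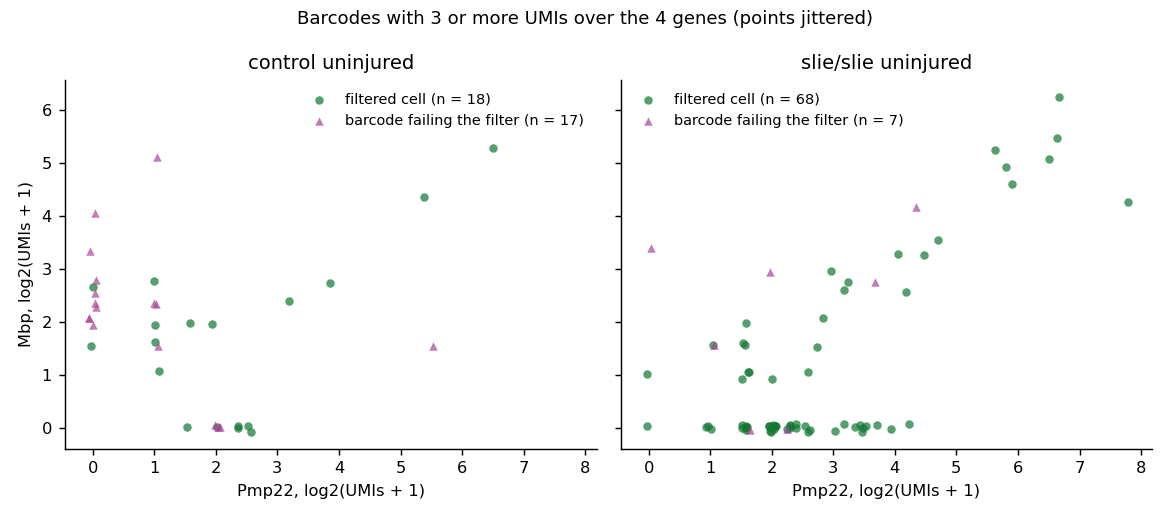
Mbp against Pmp22, each as log2(UMIs + 1), in every barcode of the uninjured libraries with 3 or more UMIs over the 4 genes (18 filtered cells and 17 failing barcodes in control, 68 and 7 in slie/slie). In control uninjured 6 failing barcodes hold Mbp and no other member, and the highest in Mbp among the failing ones holds 32 UMIs of Mbp and 1 of Pmp22.

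Genes that marked the cells over the threshold were taken as the 15 with the highest lower bound of the ratio to other filtered cells in both uninjured libraries, of 86 that met the rule. They included Sostdc1, Ncmap, Mt3, Kcna1, Cadm4, Gatm, Mal, Gpm6b, Ank3, Entpd2, Gsn, Cryab and Col3a1. Kcna1, a potassium channel, had 22 UMIs in the cells over the threshold and 0 in the other filtered cells of control uninjured, and 36 and 0 in slie/slie uninjured. Mt3, a metallothionein, had 25 and 0 and 146 and 4, and Sostdc1, a secreted BMP and Wnt inhibitor, 31 and 0 and 72 and 0. In control injured the same counts were 0 and 0 for Kcna1 and 0 and 13 for Sostdc1, but 26 and 7 for Mt3. Gsn and Col3a1, which fibroblasts express, stand at the end of the list. The cells over the threshold in control injured had 6560 Col3a1 UMIs, or 6107 CPM, against 3648 CPM in the others.

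Over the 17 clusters, the genes most like Sox10 by Pearson r of log2(CPM + 10) included Mt3 (0.984) and Kcna1 (0.972). Those most like Mbp were Pllp (0.899), Cldn19 (0.899) and Kcna1 (0.898), which are a myelin proteolipid, a tight junction protein of Schwann cells and the same potassium channel. For S100b they included Sbspon (0.960) and Wnt6 (0.927), and for Pmp22 they were Fads1 (0.929), Epdr1 (0.905) and C4b (0.895). Among the members r ranged from 0.624 (Mbp with Pmp22) to 0.902 (Mbp with Sox10). The clusters share the 4 libraries, and the values describe these cells only.

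Most measured structural genes of myelin were, like the members, lower with injury. Of 20 on the list, 12 were measured in control mice, and 11 were lower and 1 higher, with a median log2 ratio of −5.87. Over all genes 11.2% were lower and 52.2% higher there. In slie/slie mice 18 were measured, 16 lower and 2 higher, with a median of −4.01, against 26.7% and 16.8% of all genes. A gene near 0 after injury meets the minimum of 20 UMIs only through the uninjured library, so these counts favour lower genes and test nothing. With a minimum of 50 UMIs only 5 were measured in control, 4 lower and 1 higher with a median of −3.55, and 10 in slie/slie mice, 9 lower and 1 higher with a median of −4.90. With genes at 0 UMIs set to their bound of 3 counts, the medians were −5.62 and −3.30. Mal, a proteolipid of myelin membranes, had 77 UMIs against 0 in control. That is 199.9-fold lower with the 0 set to 3 counts, and at least 158.7-fold lower by the exact interval. In slie/slie mice Mal was 29.2-fold lower (15.9 to 83.6). Cnp, a phosphodiesterase of noncompact myelin, was 4.94-fold (2.83 to 8.22) and 5.59-fold lower (3.44 to 10.7), and Cadm4 11.7-fold (6.81 to 21.0) and 3.63-fold lower (2.47 to 5.76). Fa2h, a hydroxylase of myelin lipids, went the other way, at 2.38-fold (1.35 to 5.83) and 17.8-fold higher (10.4 to 41.3). Of its injured UMIs 96.2% in control and 99.5% in slie/slie mice lay in cluster 16, an unnamed cluster of 7 and 4 cells led by Scd1, so that Fa2h there does not follow the Schwann genes. In slie/slie mice Gldn, a protein of the nodes of Ranvier, was the other one counted as higher, at 1.97 (0.922 to 4.93).

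**Figure D5:**
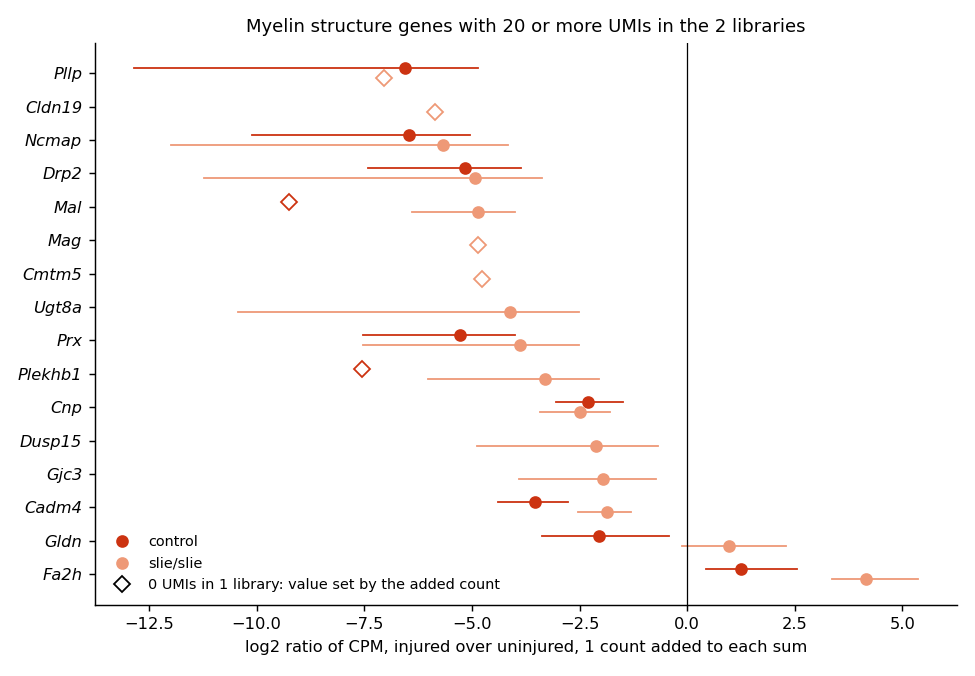
log2 ratio of CPM, injured over uninjured, for measured genes of the myelin structure list that are reported here, in control and slie/slie mice, with 95% intervals; open diamonds have 0 UMIs in 1 library. All points but Fa2h, and Gldn in slie/slie mice, lie below 0.

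Between the injured libraries 5 myelin genes were measured, and 4 were higher and 0 lower in slie/slie, against 5.9% and 30% of all genes. Fa2h, at 40.8 and 127 CPM in control and slie/slie injured, was 1 of the 4. Of its slie/slie injured UMIs 99.5% lay in cluster 16, outside the Schwann-like cluster. The single Schwann-like cell of the injured limbs was found in slie/slie, and its part in the other higher genes was not tested. In the uninjured limb 7 of 16 were higher and 1 lower in slie/slie, near the shares of 41.2% and 6.42% over all genes, and the median of 0.39 was near that of all genes (0.44). Over filtered cells 4 of 15 were higher and 5 lower, against 20.1% and 20.8% of all genes, with a median of −0.16. Of 4 myelin genes known from the central nervous system, only Hapln2 was found, with 1 UMI in control uninjured and 2 in control injured.

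Receptors and ligands of Schwann cells were lower in part, and in control mice the count depended on the scaling. There 3 of 7 measured were lower and 2 higher (median log2 ratio −0.28), against 11.2% and 52.2% of all genes. Over filtered cells 5 were lower and 2 higher (median −1.41), against 31.4% and 26% of genes. Without hemoglobin the counts were also 5 and 2 (median −0.74), against 20.5% and 34.2%. In slie/slie mice 8 of 10 were lower and 0 higher (median −0.88), against 26.7% and 16.8% of genes. The counts there were 6 and 0 over filtered cells, against 22.8% and 20%, and also without hemoglobin, against 20.2% and 22.7%. Lgi4, a secreted protein needed for myelination, was 14.3-fold lower in control (4.85 to 58.1) and 5.33-fold lower in slie/slie mice (2.66 to 15.7). The laminin receptor subunit Itga6 was 1.86-fold (1.22 to 2.64) and 1.86-fold lower (1.37 to 2.60), and its partner Itgb4 3.05-fold (1.65 to 5.11) and 1.46-fold lower (1.03 to 2.12). Dag1, dystroglycan, had ratios of 0.878 (0.632 to 1.31) and 0.667 (0.507 to 0.866). The lysophosphatidic acid receptor Lpar1 had ratios of 2.97 (1.48 to 11.1) and 0.637 (0.417 to 0.945). Nrg1, the axonal signal for Schwann cells, had 0, 3, 57 and 4 UMIs in control uninjured, slie/slie uninjured, control injured and slie/slie injured.

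Regulators that other cells also use did not follow the members, and in control mice they lay near the shares over all genes. There 1 of 10 measured was lower and 4 higher (median 0.53), against 11.2% and 52.2% of all genes (median 0.63). Over filtered cells 4 were lower and 2 higher (median −0.30), against 31.4% and 26% (median −0.10). In slie/slie mice 3 of 8 were lower and 0 higher (median 0.10), against 26.7% and 16.8% (median −0.13). Yy1 had ratios of 2.30 (1.67 to 3.47) and 1.05 (0.836 to 1.32) and Zeb2 of 1.41 (1.11 to 1.86) and 0.529 (0.419 to 0.659). Id2 had 0.966 and 1.35, Nab1 1.49 and 1.10, Tead1 1.51 and 1.25 and Nab2 2.15 and 1.496. Of genes of nonmyelinating or immature Schwann cells, 2 of 5 were lower and 1 higher in control (median −0.25, or −0.97 over filtered cells). In slie/slie mice 5 of 8 were lower and 1 higher (median −1.45). These counts are to be read against the same shares over all genes. With a minimum of 50 UMIs the medians in control and slie/slie mice were 0.30 and 0.18. Scn7a had ratios of 0.840 (0.488 to 1.81) and 0.138 (0.0588 to 0.246), Dhh, a ligand made by Schwann cells, 0.482 and 0.0897, and Cdh2 1.23 and 1.13. Ncam1 was 6.45-fold (3.10 to 29.7) and 1.91-fold higher (1.25 to 3.05). Cdh19 had 9 UMIs against 0 in control and 29 against 11 in slie/slie mice.

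Genes of the repair Schwann cell, the state known after nerve injury, were close to the floor. Of 11 on the list, 3 were measured in control mice (2 higher and 1 lower, or 1 and 1 over filtered cells) and 2 in slie/slie mice (0 and 0). Over all genes 52.2% were higher and 11.2% lower in control, or 26% and 31.4% over filtered cells. In slie/slie mice these shares were 16.8% and 26.7%. Ngfr had 4, 10, 24 and 11 UMIs in control uninjured, slie/slie uninjured, control injured and slie/slie injured, with ratios of 0.642 (0.265 to 3.06) and 1.13 (0.437 to 2.98). The neurotrophin gene Bdnf had 0, 3, 28 and 7 UMIs, Gap43, a growth-associated protein, 0, 8, 15 and 1, Sox2 1, 11, 1 and 0, and Artn, a ligand of the GDNF family, 0, 0, 7 and 1. Jun, a regulator of the repair state that many cells express, had ratios of 1.66 (1.31 to 2.19) and 0.775 (0.645 to 0.929). The repair genes do not tell whether Schwann cells of that state were in the tissue, since 0 and 1 Schwann-like cells were recovered from the injured limbs. For control injured, 0 of 751 cells allows a share of up to 0.490%.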

How the data were processed

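The deposited values are raw UMI counts by gene and barcode. Per the file headers they came from Cell Ranger 5.0.1, and the submitters' processing notes name mm10. The sources used here name neither the annotation nor the barcode-calling settings. The kit read 3′ ends, per the labels' protocols. Members and gene lists were chosen with earlier results of these data known.

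UMIs were summed per library over all barcodes, and over filtered cells as an alternative. Intervals are exact (Poisson for CPM, conditional binomial for ratios, Clopper-Pearson for shares). Only the ratio intervals were tested on simulated data. The simulated counts were independent Poisson draws, so they do not cover UMIs gathered in single cells. With 1 library per group no p-values were computed. Named genes were all members, up to 6 per list with the most UMIs, 15 marking genes and 3 most alike genes per member, of which some are not reported here. Cells were clustered with scanpy 1.11.5 and leidenalg 0.10.2 (2000 variable genes, 30 components, 15 neighbours, resolution 1) without the members. A cluster name needed 3 supporting markers, 1 of them among its 10 leading genes or 5 in all, and no other type ahead among those genes. These limits were set after the data were seen. Scrublet called 14, 4, 0 and 2 doublets (control uninjured, slie/slie uninjured, control injured, slie/slie injured), which were kept. Of these, 3, 1, 0 and 0 were over the threshold of 3 member UMIs. With the called cells left out, the Schwann-like cluster held 10, 16, 0 and 1 cells in the same order. Other tools were Python 3.11.15, scipy 1.17.1 and numpy 2.4.6. Coordinates came from GENCODE vM21 (mm10).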

Additional observations from a re-analysis of the deposited data

Results flagged for a closer look

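Among the named genes, Lpar1 and S100a10 moved in opposite directions with injury in the 2 genotypes, by 1.5-fold or more and with intervals that exclude 1. The ratio of injured to uninjured was 2.97 in control and 0.637 in slie/slie mice for Lpar1, and 2.13 and 0.641 for S100a10, a relative of S100b. The control ratio of Lpar1 rests on 5 UMIs in control uninjured, against 138 in control injured. With 1 library per group the difference between genotypes was not tested, and the median log2 ratio of all genes differed in the same direction (0.63 and −0.13). The control median was −0.10 over filtered cells, so these opposite directions may depend on the scaling.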

How the results depend on the processing

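With 1 library per group, no replicate spread is known, Sox10 rests on 4 to 37 UMIs per library, and control uninjured on 60 filtered cells. No paired analysis was possible because the groups share fewer than 2 replicate numbers, and a fit with the genotypes as blocks was not run. Every injured to uninjured ratio of a member kept its direction over filtered cells, without hemoglobin, without the shared barcode and without the 3 deepest barcodes, though over filtered cells control went from 7.79-fold to 16.6-fold lower for Sox10, from 9.98-fold to 14.0-fold for S100b and from 6.35-fold to 9.65-fold for Pmp22. Ratios of slie/slie to control whose intervals include 1 did change direction over filtered cells: Pmp22 (1.18) and S100b (1.25) in the injured and Sox10 (0.689) in the uninjured limb. The cause was not tested. The summed level of the 4 members was 952, 1045, 97.4 and 83.0 CPM (control uninjured, slie/slie uninjured, control injured, slie/slie injured). In the same order it was 1346, 1361, 108 and 119 over filtered cells, 1542, 1380, 115 and 125 with hemoglobin left out of the total, and 461, 332, 19.9 and 14.1 without Pmp22. Without the 3 deepest barcodes it was 1108 and 1101 in the uninjured libraries. The share of cells over the threshold, in percent of filtered cells in the same order, was 13.2, 8.15, 0 and 0 in cells thinned to 500 UMIs. Without Pmp22 in the sum it was 13.04, 0.666 and 0.813 in the last 3 libraries. At a threshold of 5 UMIs it was 20.7, 2.93 and 1.63 in those, at 2 UMIs 46.7 and 9.85 in slie/slie uninjured and control injured, and with a minimum of 500 genes 8.46 and 8.33 in control and slie/slie injured.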

Other observations

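Cholesterol synthesis genes, which myelinating cells need in quantity, were higher rather than lower in the injured limbs, in control mice less so under other scalings. Of 15 measured, 13 were higher and 0 lower in both genotypes, with median log2 ratios of 1.502 in control and 2.24 in slie/slie mice. Over all genes 52.2% were higher in control (median 0.63) and 16.8% in slie/slie mice (median −0.13). Over filtered cells 8 were higher and 2 lower in control (median 0.59, against −0.10 over all genes), and without hemoglobin 9 and 2. In slie/slie mice 14 were higher and 0 lower under both. Idi1, an isomerase early in the pathway, had ratios of 5.07 (3.06 to 11.1) and 9.47 (6.75 to 14.5), Cyp51 of 2.83 and 11.1, Fdps of 2.85 and 4.71 and Hmgcs1 of 1.72 and 4.08. Cluster 16, led by Scd1 and with 1.95% and 4.11% of the UMIs of the control and slie/slie injured libraries, carried 68.7% and 76.8% of their Idi1 UMIs, 45.5% and 80.9% of Cyp51, 42.5% and 58.4% of Fdps and 50.7% and 60.5% of Hmgcs1.

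Relatives of the members, the other S100 genes and the Emp genes of the Pmp22 family, moved both ways. In control mice 7 of 11 measured were higher and 2 lower with injury (median 1.09), against 52.2% and 11.2% of all genes (median 0.63). Over filtered cells 5 were higher and 2 lower (median 0.53), against 26% and 31.4% (median −0.10). In slie/slie mice 3 were higher and 4 lower (median −0.43), against 16.8% and 26.7% (median −0.13). S100a11 had ratios of 5.52 (4.81 to 6.43) and 2.14 (1.99 to 2.31), S100a4 of 3.80 (3.02 to 4.99) and 1.73 (1.46 to 2.05), S100a6 of 1.52 and 0.742, Emp3 of 2.18 and 0.689 and S100a13 of 0.981 and 0.395.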
